A study of Rattus norvegicus with 9 samples.

Results

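The genes described here mark microglia, the resident macrophages of the brain, or encode the complement protein C1q and the receptors and enzymes that act beside it. 10 genes were named: C1qa, C1qb, C1qc, Trem2, Tyrobp, Fcer1g, Csf1r, Cx3cr1, Aif1 and Ctss. A gene was included where the platform annotation gave its symbol to a probe. 9 of the 10 had such a probe, 1 each, among 10412 gene symbols and 22517 probes on the array, and all 9 were among the 18531 probes tested. No probe carried the symbol Csf1r, so the receptor for colony-stimulating factor 1 was not analysed here.

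Total RNA came from the cortex of 9 Sprague-Dawley rats, 6 males and 3 females, all killed at 60 days of age. All 9 served as non-irradiated controls in a radiation model of malformed cortex, and offspring of exposed animals were not analysed here. Each animal's RNA was labelled with biotin and hybridised to its own Illumina rat bead array, on which a probe's brightness stands for the amount of 1 transcript. The comparisons open to these samples were males against females, the 3 numbers found in the sample titles (1 female and 2 males each), whose meaning is not stated, and the covariation of the genes from animal to animal.

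C1q starts the classical complement pathway. It is built from the C1qa, C1qb and C1qc chains, and in brain it comes mainly from microglia and tags synapses and debris for removal. TREM2 is a lipid-sensing receptor that signals through the adaptor TYROBP (DAP12), while FCER1G is the adaptor of Fc receptors. CX3CR1 receives the neuronal chemokine fractalkine, AIF1 (IBA1) is an actin-binding protein widely used to stain microglia, and cathepsin S (Ctss) is a lysosomal protease that microglia also secrete.

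All 9 genes exceeded the lowest 25% of their array on all 9 arrays. The mean intensity of an array was 183.6 to 185.4 on the 3 dimmest arrays (male 2, male 4 and female 2) and 212.2 to 238.8 on the other 6, and male 5 had the brightest. Values were quantile-normalized, yet several of the genes still moved with this brightness, so results are also given for the 6 brighter arrays. Brightness also varied within those 6, so the subset does not remove it. Pairs of arrays correlated at 0.983 to 0.995 over the 18531 tested probes after normalization. The neuronal marker Snap25 read 2965 to 5492 on the deposited intensity scale and the hippocampal marker Prox1 read 48.8 to 57.4, near the array medians of 47.6 to 54.0. Among microglial defining markers, P2ry12 read 82.7 to 130.0, whereas Tmem119 (45.7 to 58.1), Itgam (45.6 to 63.0) and Spi1 (37.7 to 50.2) lay near or below those medians. Other microglia genes read higher, such as Laptm5 (144.9 to 205.8), Rac2 (152.6 to 232.8) and Cyba (176.6 to 392.1). Of 31 measured microglia identity genes, 7 had a median intensity below the median of all arrays together. In whole cortex, fewer microglia and less RNA per microglial cell cannot be told apart.

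The genes of the C1q chains lie side by side in the RefSeq annotation of GRCr8, in the order C1qb, C1qc and C1qa, with no other gene between them. RefSeq promoter windows, from 250 bases before to 50 bases after the annotated start, are shown for C1qa and C1qb, which lie in the same cluster, for Trem2, whose level followed C1qb from animal to animal, and for Ctss, the lysosomal protease of the set. Each reads 5′ to 3′ on the strand of its gene. Capitals mark the ETS core GGAAGT, bound by factors of the PU.1 family, read on either strand (ACTTCC on the opposite one), and in Ctss also a tandem interferon-response match, GAAA half-sites with 2 bases between them.
C1qa window, chr5:154419884-154420183, reverse strand: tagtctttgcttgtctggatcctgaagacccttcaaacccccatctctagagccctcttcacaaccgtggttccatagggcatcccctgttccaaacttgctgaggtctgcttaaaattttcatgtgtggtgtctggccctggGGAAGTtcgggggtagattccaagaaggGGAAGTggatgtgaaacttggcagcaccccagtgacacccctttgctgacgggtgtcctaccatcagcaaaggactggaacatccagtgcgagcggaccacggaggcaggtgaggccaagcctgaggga
C1qb window, chr5:154407778-154408077, reverse strand: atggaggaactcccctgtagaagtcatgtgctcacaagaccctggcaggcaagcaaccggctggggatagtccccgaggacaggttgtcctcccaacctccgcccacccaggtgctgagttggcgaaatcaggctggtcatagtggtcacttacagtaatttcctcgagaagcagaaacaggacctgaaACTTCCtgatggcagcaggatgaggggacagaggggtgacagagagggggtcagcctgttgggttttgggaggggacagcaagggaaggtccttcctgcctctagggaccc
Trem2 window, chr9:20151730-20152029, reverse strand: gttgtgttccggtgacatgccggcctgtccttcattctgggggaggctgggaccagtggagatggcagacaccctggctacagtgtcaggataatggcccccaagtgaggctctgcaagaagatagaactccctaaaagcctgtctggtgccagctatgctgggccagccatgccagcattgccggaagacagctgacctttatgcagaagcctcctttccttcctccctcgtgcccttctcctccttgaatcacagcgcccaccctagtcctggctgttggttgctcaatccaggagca
Ctss window, chr2:185775146-185775445, forward strand: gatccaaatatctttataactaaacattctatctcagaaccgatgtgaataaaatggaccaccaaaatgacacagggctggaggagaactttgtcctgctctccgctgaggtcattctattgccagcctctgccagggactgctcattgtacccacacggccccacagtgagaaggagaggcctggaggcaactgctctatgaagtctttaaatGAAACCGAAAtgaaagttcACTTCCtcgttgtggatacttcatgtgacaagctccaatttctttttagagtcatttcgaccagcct
The GGAAGT core began 107 and 79 bases before the C1qa start, 61 bases before the C1qb start and 17 bases before the Ctss start. The GAAA pair in Ctss began 36 bases before the start, and its ETS core also read GAGGAAGT, the longer PU.1 form. Of 6 listed windows of the 10 genes (C1qa, C1qb, Trem2, Ctss, Cx3cr1 and Csf1r), 4 held GGAAGT, 1 held GAGGAAGT and 1 held the GAAA pair. Among all 33469 windows, 22.6% held the first, 2.42% the second and 3.92% the third. The match is a description of letters, and these windows were not assayed.

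Levels below are normalized log2 intensities. C1qa ranged from 7.96 to 8.23 in the 6 males, with a median of 8.04, against 7.96, 7.68 and 7.93 in females 1, 2 and 3. Male 5 was highest and female 2 lowest, and the sexes overlapped in 1 place, where female 1 lay above male 2. The means were 8.07 ± 0.10 in males and 7.86 ± 0.16 in females (SD, n = 6 and 3), a difference of 0.21 (95% interval 0.04 to 0.39). That difference did not pass the test over all probes (limma, unadjusted p = 0.021, adjusted p = 1.00). It was 0.12 without female 2 (unadjusted p = 0.13) and 0.16 without the 3 dimmest arrays (unadjusted p = 0.067). C1qb ranged from 8.46 to 9.02 in males, with a median of 8.85, against 8.71, 8.58 and 8.68 in the females. Male 4 was highest and male 6 lowest, so that the females sat inside the male range. Its male minus female difference was 0.15 (95% interval -0.09 to 0.39), and 0.062 without the 3 dimmest arrays. C1qc ranged from 7.27 to 7.95 in males, with a median of 7.69, against 7.80, 7.19 and 7.73 in the females. Its lowest values were in female 2 and male 2, with male 4 next at 7.64, all on dim arrays. Every brighter array read 7.66 or more. The C1qc difference between the sexes was 0.11 (95% interval -0.25 to 0.47). Without female 2, the C1qc difference turned to -0.082.

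Trem2 ranged from 7.83 to 8.51 in males, with a median of 8.31, against 7.89, 8.06 and 7.83 in the females. Males 2, 3, 4 and 5 stood above every female, while male 1 lay among the females and male 6 level with the lowest of them. The difference was 0.27 (95% interval -0.04 to 0.59; limma, unadjusted p = 0.083). Its partner Tyrobp moved little, from 6.20 to 6.40 in males and from 6.24 to 6.39 in females, and its deposited intensity of 54.0 to 71.2 placed it at the 55.8th to 63.0th percentile of its array. A signal so near the middle of the array leaves little room to measure a difference, which was 0.01 (95% interval -0.12 to 0.15). Fcer1g ranged from 8.79 to 9.39 in males, with a median of 8.98, against 9.14, 8.53 and 8.84 in the females. Male 5 was highest and female 2 lowest, female 1 exceeded 5 of the 6 males, and the difference was 0.17 (95% interval -0.15 to 0.49). That value rested on single animals: it was 0.020 without female 2, 0.097 without male 5 and 0.32 without female 1.

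Cx3cr1, the fractalkine receptor, ranged from 6.11 to 6.25 in males and read 6.09, 6.21 and 6.28 in females 1, 2 and 3. Its deposited intensity was 49.4 to 57.2, close to the array medians, and its difference between the sexes was -0.04 (95% interval -0.16 to 0.09). A probe at this brightness can resolve little.

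Aif1 ranged from 9.03 to 9.49 in males, with a median of 9.25, against 8.95, 8.99 and 8.85 in females 1, 2 and 3. Every male lay above every female, with a gap of 0.04 between male 6 and female 2. The means were 9.26 ± 0.18 in males and 8.93 ± 0.07 in females (SD, n = 6 and 3), a difference of 0.33 (95% interval 0.11 to 0.55). Aif1 was the only one of the 9 genes whose sexes did not overlap in that direction, and 0.669% of all tested probes showed such a separation. The difference did not pass the test over all probes (limma, unadjusted p = 0.0081, adjusted p = 1.00). It was 0.30, 0.31 and 0.38 among the animals of the first, the second and the third title number, and 0.42 on the 3 dim arrays against 0.28 on the 6 brighter ones.

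Ctss ranged from 10.33 to 11.06 in males, with a median of 10.68, against 10.59, 10.70 and 10.77 in the females. The highest and the lowest animals, males 4 and 6, were both male, and all females lay between them. The male minus female difference was -0.0038 (95% interval -0.31 to 0.30), with means of 10.68 ± 0.27 in males and 10.68 ± 0.09 in females (SD, n = 6 and 3). For Ctss the sign of so small a difference changed with the normalization (0.054 without it) and with single animals left out (-0.079 to 0.065), and the difference was -0.14 without the 3 dimmest arrays.

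**Figure D1:**
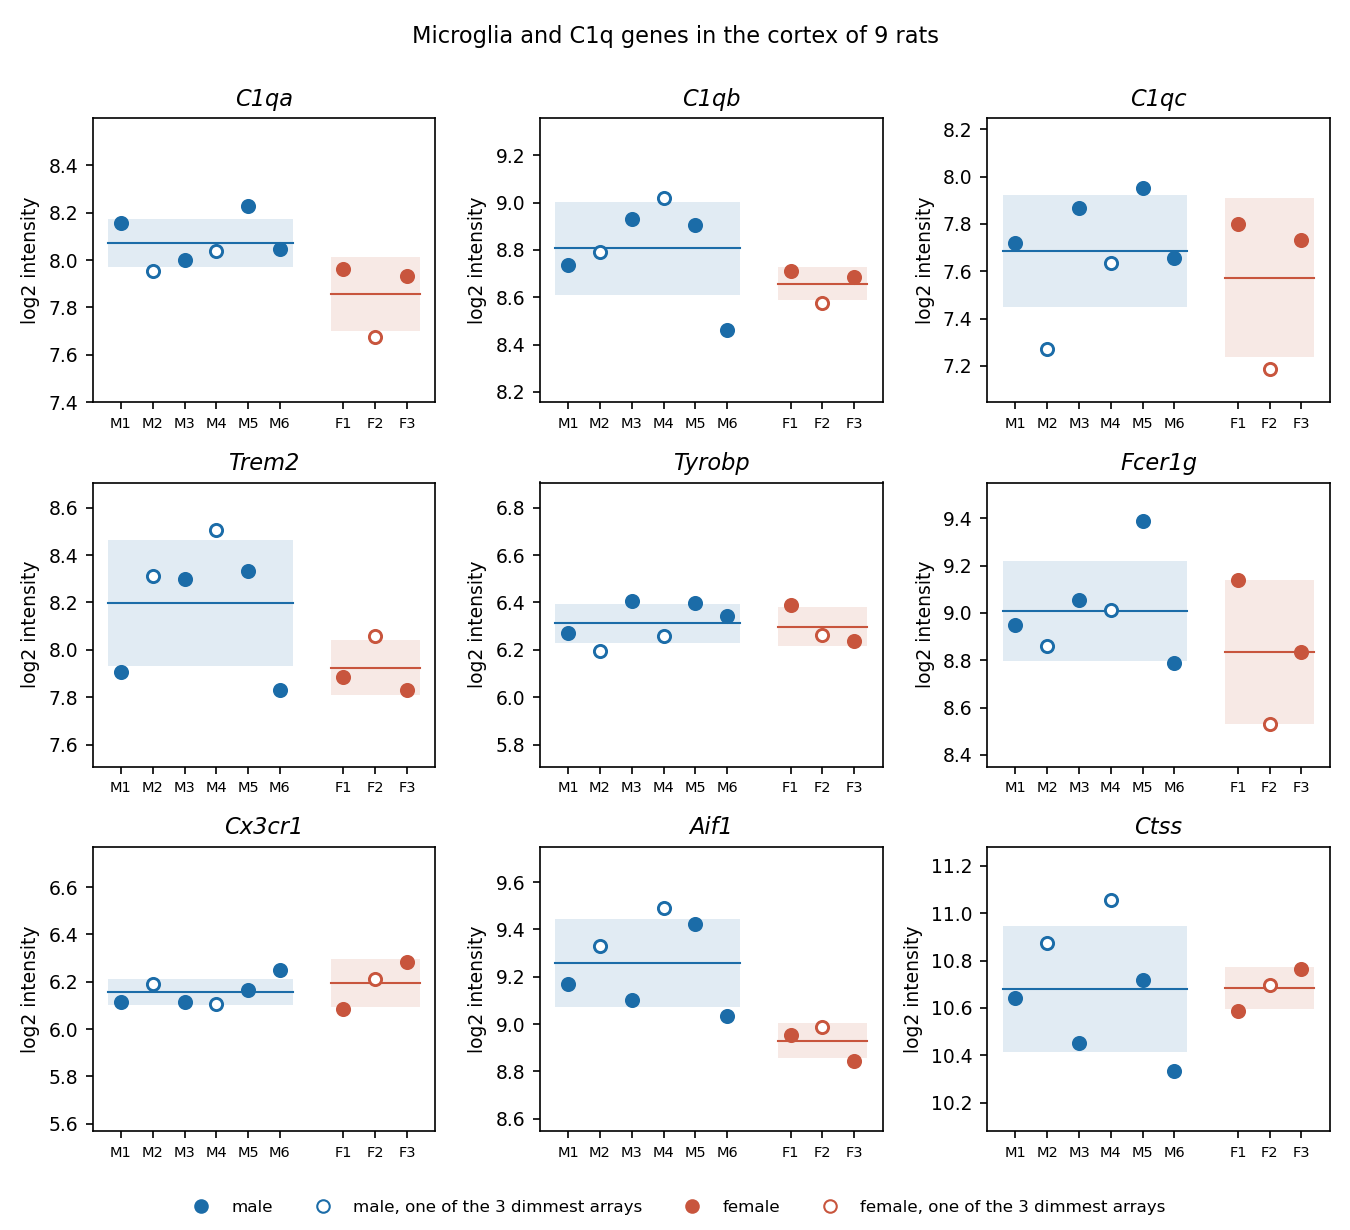
Normalized log2 intensity (y axis) of the 9 measured genes in each animal (x axis), males M1 to M6 left of females F1 to F3, with lines for the group mean and bands for 1 SD; open points are the 3 dimmest arrays. Aif1 shows every male above every female, while Ctss, Tyrobp and Cx3cr1 show sexes that overlap throughout.

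Across the genes, none of the 9 passed the test for sex (limma, adjusted p under 0.05), and none of the 18531 tested probes did (0.0%). At an unadjusted p under 0.05, 2 of the 9 did, Aif1 and C1qa, both higher in males (Aif1 alone without female 2), beside 439 probes or 2.37% overall (1.19% for probes higher in males). The male mean was the higher one for 7 of the 9, beside 49.7% of all probes; the exceptions were Ctss and Cx3cr1. With 6 males and 3 females the intervals left room for differences of up to 0.55 for Aif1 and up to 0.59 for Trem2. The title number passed the test for none of the 9 genes and for none of the 18531 probes (limma F test, 0.0%). At an unadjusted p under 0.05 it called none of the 9 beside 9.56% of all probes, and the genes' adjusted p ran from 0.62 to 0.96.

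**Figure D2:**
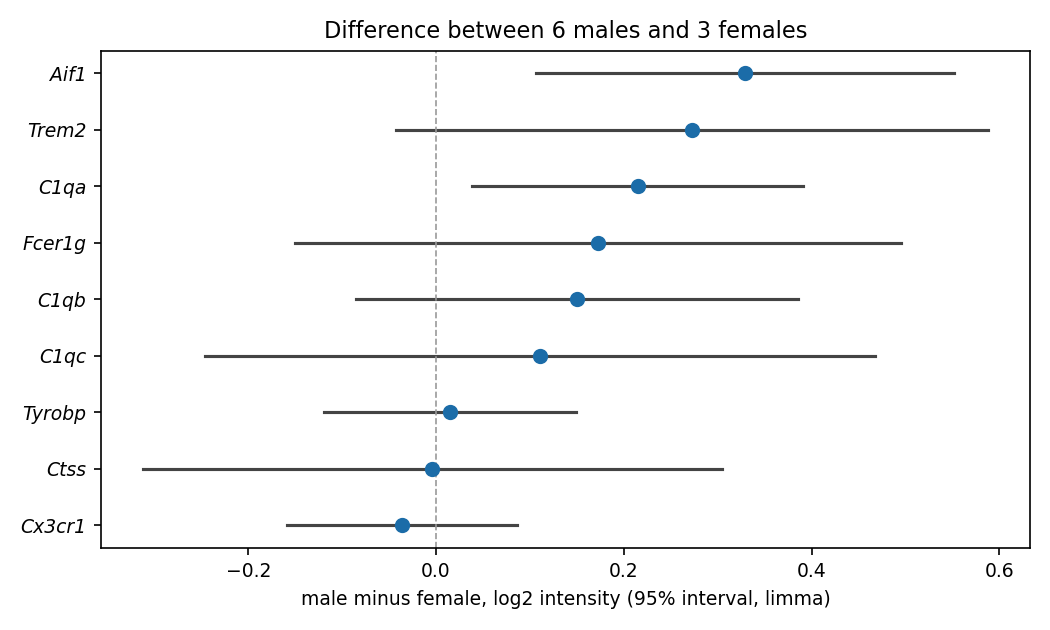
Male minus female difference in log2 intensity (x axis) for the 9 genes (y axis), points for the limma estimate and bars for its 95% interval, without adjustment for the number of probes. The bars of Aif1 (0.11 to 0.55) and C1qa (0.04 to 0.39) stay above 0 and the other 7 cross it.

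The spread of each gene was set beside that of other probes of like brightness. Among probes within 0.25 log2 units of the same mean, the SD within sex stood at the 89.5th percentile for C1qc, the 81.4th for Trem2 and the 79.5th for Fcer1g. It was lowest, at the 26.9th percentile, for C1qa, and between the 46.9th and 69.9th for the other 5. Male 5 was above the median animal for 8 of the 9 genes and female 2 for 1 of 9. The mean of the standardised levels was 0.97 in male 5 and -0.82 in female 2, the extremes; the other males lay between -0.40 and 0.58 and the other females at -0.16 and -0.25.

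The 9 genes form 36 pairs. The median Pearson correlation over the 9 animals was 0.27, against 0.0 for all pairs of tested probes, and 22 of the 36 were positive. That median was 0.085 without male 5, 0.18 without female 2 and 0.075 after removing the sex means. 13 of the 36 exceeded 0.5, as did 10.8% of all probe pairs, and 4 exceeded 0.75, as did 1.76%. 7 pairs were positive with an unadjusted p under 0.05 (exact permutation over 9 animals, two-sided), and no negative pair was. After adjustment over all probes correlated with the first-named gene no pair passed, with a smallest adjusted p of 0.22 for C1qc with Fcer1g. The share of other tested probes with such a positive correlation differed by gene: it was 2.94% for Aif1, 3.23% for C1qa, 2.28% for C1qb, 6.7% for C1qc and 3.68% for Trem2. For the remaining genes it was 3.17% for Fcer1g, 3.71% for Tyrobp, 4.63% for Ctss and 1.54% for Cx3cr1. Of 8 partners each, C1qc had 3 such correlations, Aif1, C1qa, C1qb, Trem2 and Fcer1g had 2, Tyrobp had 1, and Ctss and Cx3cr1 had none.

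The 7 pairs fell into 2 chains with no pair between them at that threshold, a division seen in the data and not tested. C1qb with Fcer1g, a pair across the chains, missed it with r = 0.64 (exact permutation p = 0.062). By rank that pair had rho = 0.70 (exact permutation p = 0.043). Without males 4 and 6 its r was 0.76 (exact permutation p = 0.044). One chain held Aif1, Trem2 and C1qb. Aif1 with Trem2 had r = 0.84 (rho = 0.83; exact permutation p = 0.0066), and C1qb with Trem2 had r = 0.83 (rho = 0.85; exact permutation p = 0.0054). Aif1 with C1qb had r = 0.70 (rho = 0.75; exact permutation p = 0.037). Male 4 was highest for each of these genes. Without the 2 animals farthest from the median of the first gene, r was lower, at 0.67, 0.71 and 0.39, and none kept a p under 0.05. The animals left out were males 4 and 5, or males 4 and 6 for C1qb with Trem2. With 2 fewer animals the same r has a larger p, and the fall in r was largest for Aif1 with C1qb. Aif1 with C1qb also lost its p under 0.05 without male 1, male 4, male 5, female 1 or female 2, each alone (r = 0.56 to 0.71).

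The other chain held C1qa, C1qc, Fcer1g and Tyrobp. C1qc with Fcer1g had r = 0.81 (rho = 0.77; exact permutation p = 0.0068), and this stayed at 0.81 without male 2 and female 2, the animals farthest from the C1qc median, and was 0.65 without female 2 alone (exact permutation p = 0.091). C1qa with Fcer1g had r = 0.79 (rho = 0.53; exact permutation p = 0.020), and C1qa with C1qc had r = 0.74 (rho = 0.48; exact permutation p = 0.021). Both rested on male 5 and female 2: without both animals r was 0.0018 and 0.17. Without male 5 alone r was 0.67 and 0.66, and without female 2 alone 0.59 and 0.46, none with a p under 0.05. C1qc with Tyrobp had r = 0.72 (rho = 0.73; exact permutation p = 0.027), which became -0.13 when arrays were scaled to their 75th percentile and lost its p under 0.05 without male 2, male 3, male 5 or female 1 (r = 0.60 to 0.70). The adaptor pair Tyrobp and Fcer1g reached 0.62 (rho = 0.58; exact permutation p = 0.069), and 0.69 without male 6 (exact permutation p = 0.043).

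Other pairs of partners in 1 complex missed p under 0.05 over all 9 animals. C1qa with C1qb had r = 0.41 (rho = 0.35, exact permutation p = 0.27). Its r was 0.74 after removing the means of the title numbers as a block. No p is given there, because such residuals cannot be shuffled freely over all 9 animals. Without normalization its r was 0.78 (exact permutation p = 0.014). C1qb with C1qc had r = 0.36 (rho = 0.30, exact permutation p = 0.33), and 0.82 without normalization (exact permutation p = 0.0088). Without normalization the median over the 36 pairs also rose, to 0.59. No value over all probe pairs is given for these settings, so these p-values cannot be set against a background. Trem2 and its adaptor Tyrobp had r = -0.0049 (rho = -0.03; exact permutation p = 0.99), with Tyrobp in the range where its probe can resolve little. Ctss with Tyrobp was the lowest of the 36, at -0.62 (rho = -0.72; exact permutation p = 0.078). Cx3cr1 was negative with all 8 other genes, from -0.12 to -0.61.

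**Figure D3:**
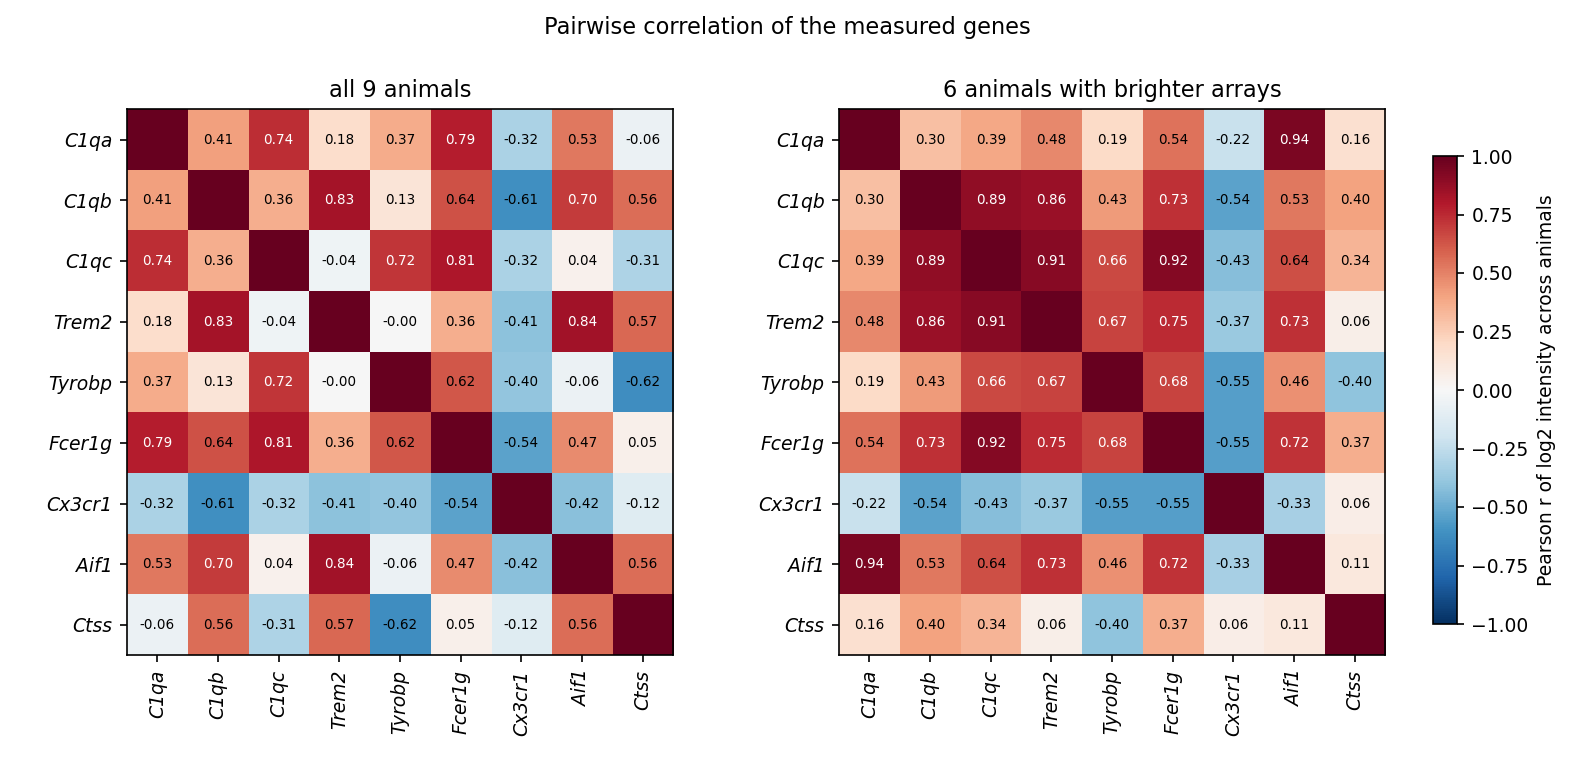
Pearson correlation of log2 intensity (colour scale and printed values) for each pair of the 9 genes over all 9 animals (left) and over the 6 animals with brighter arrays (right). The left panel holds 22 positive pairs of 36 and the right panel 28, and C1qc with Trem2 stands at -0.04 on the left and 0.91 on the right.

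Array brightness moved with these correlations. In the chain of C1qa, C1qc, Fcer1g and Tyrobp, r with mean array intensity over all 9 arrays was 0.69, 0.85, 0.65 and 0.71. Of all tested probes, 90.2% to 98.4% had a lower r than these genes. In the chain of Aif1, Trem2 and C1qb, r was -0.10, -0.25 and 0.06. Ctss stood at -0.57 and Cx3cr1 at -0.11. C1qc averaged 7.36 ± 0.24 on the 3 dim arrays and 7.79 ± 0.11 on the other 6, and C1qa averaged 7.89 ± 0.19 and 8.05 ± 0.12 (SD, n = 3 and 6). Ctss ran the other way, at 10.87 ± 0.18 and 10.58 ± 0.16, as did Aif1 at 9.27 ± 0.26 and 9.09 ± 0.20 and Trem2 at 8.29 ± 0.23 and 8.01 ± 0.24. Within the 6 brighter arrays the median over the 36 pairs was 0.41 and 28 were positive. No value over all probe pairs is given for those 6 arrays. There C1qb with C1qc had r = 0.89 (exact permutation p = 0.028), C1qc with Trem2 had 0.91 (exact permutation p = 0.0097) and Aif1 with C1qa had 0.94 (exact permutation p = 0.0028). Each of these pairs joins genes of both chains. These pairs were named after their values were seen, and their p was not adjusted. Over all 9 animals the same pairs stood at 0.36, -0.04 and 0.53. Of the 7 pairs called over all animals, 5 missed p under 0.05 in the 6: Aif1 with Trem2 (r = 0.73, exact permutation p = 0.11), C1qa with C1qc (0.39), C1qa with Fcer1g (0.54), Aif1 with C1qb (0.53) and C1qc with Tyrobp (0.66). With 6 animals in place of 9 the same r has a larger p, so a missed p alone does not show a weaker relation. Within those 6, Aif1 (r = 0.97), C1qa (0.86), Trem2 (0.85), C1qc (0.77), Fcer1g (0.76) and C1qb (0.70) correlated positively with mean array intensity. Tyrobp stood at 0.44, Ctss at 0.23 and Cx3cr1 at -0.32, given here as a description. The subset of 6 arrays therefore did not hold brightness fixed, and its pair correlations join genes that each moved with it. The part of array brightness in the pair correlations was not tested.

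**Figure D4:**
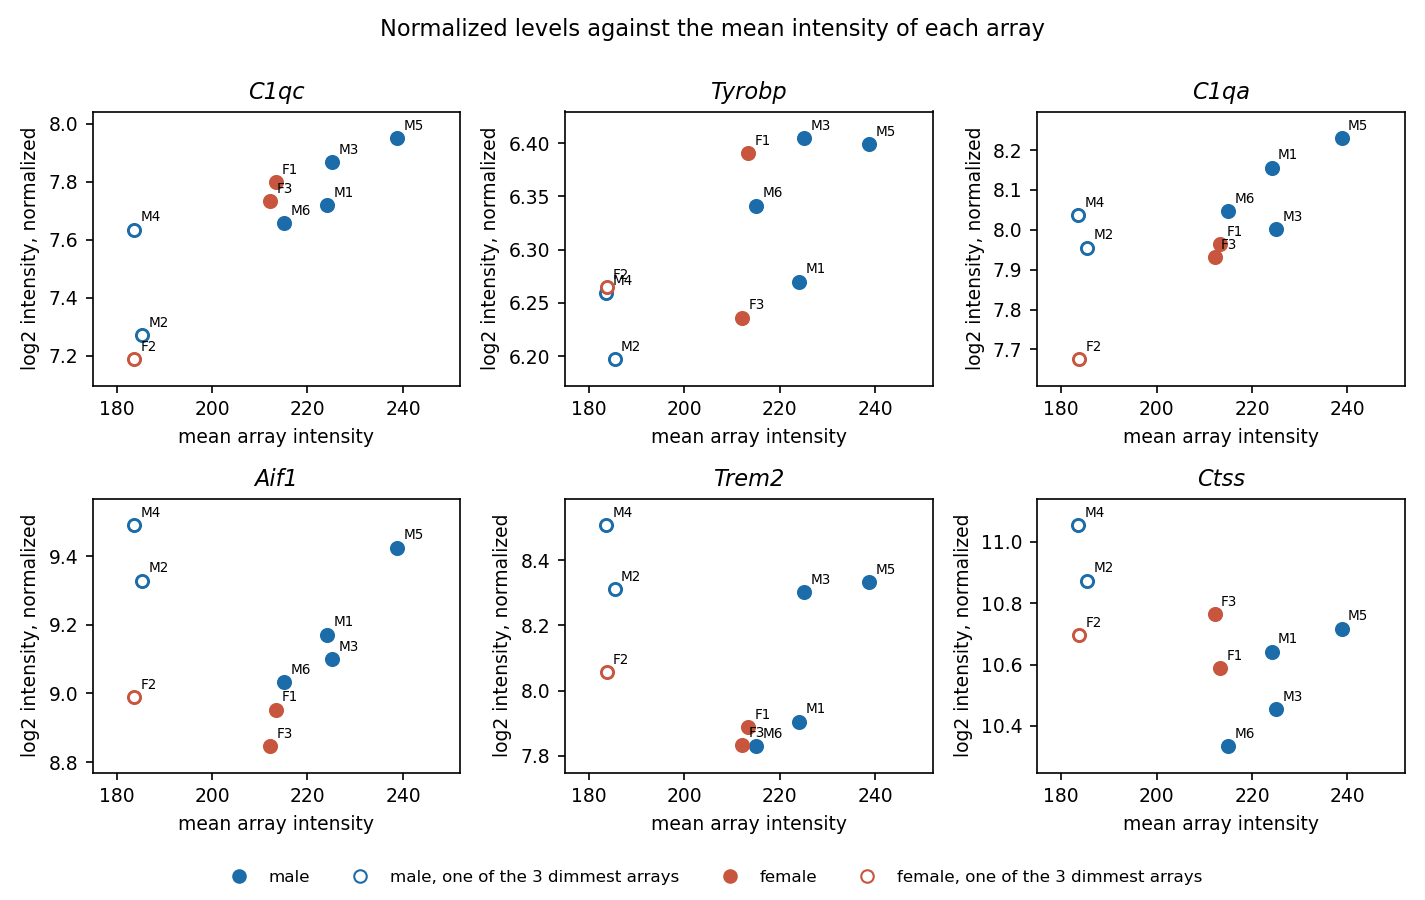
Normalized log2 intensity (y axis) of 6 of the genes against the mean deposited intensity of each array (x axis), males in blue and females in red, open points for the 3 dimmest arrays. C1qc has its 3 lowest values on the 3 dim arrays, Ctss is high on 2 of them, and Aif1 runs upward with intensity among the 6 brighter arrays.

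The other genes of microglia were described from lists of known genes, each gene by its brightest probe. Of 49 microglia identity genes, 31 were measured, and none passed the test for sex after or before adjustment at p under 0.05. The male mean was higher for 20 of the 31 and the median difference was 0.04, against -0.00035 over all probes. Normalized values were put back on the linear scale and summed over each list, so every probe carries the offset of 50. The summed normalized intensity was 4128 to 4674 in males and 4035 to 4263 in females, highest in male 5 and lowest in female 2. The mean correlation with the 9 genes was positive for 26 of the 31, with a median of 0.10 against -0.0090 over all probes. The highest was that of Cyba, the p22phox subunit of the phagocyte NADPH oxidase, with r = 0.92 to C1qa (rho = 0.83; exact permutation p = 0.0023, adjusted p = 0.74) and r = 0.90 to Fcer1g (rho = 0.73; exact permutation p = 0.0053, adjusted p = 0.75). Adgre1, the F4/80 macrophage protein, had r = 0.77 to Aif1 (rho = 0.78; exact permutation p = 0.0057, adjusted p = 0.69), at an intensity of 40.6 to 61.8. Unc93b1, which carries Toll-like receptors to the endosome, had r = 0.80 to C1qb (rho = 0.80; exact permutation p = 0.0099, adjusted p = 1.00), at an intensity of 51.5 to 69.3. Runx1, a myeloid transcription factor, had r = -0.78 to Aif1 (rho = -0.80; exact permutation p = 0.020, adjusted p = 0.76) and a mean correlation of -0.29 with the 9 genes, and Mertk, a receptor for apoptotic cells, had a mean of -0.23. The mean correlation was -0.014 for P2ry12, 0.04 for Tmem119 and -0.023 for Itgam.

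In the complement list 18 of 35 genes were measured, none was called for sex after or before adjustment, and 10 were higher in males on average (median difference 0.03). Serping1, the C1 inhibitor that blocks C1r and C1s, had r = 0.84 to C1qb (rho = 0.78; exact permutation p = 0.0053, adjusted p = 0.90). Cfd, the alternative-pathway protease factor D, had r = 0.79 to Fcer1g (rho = 0.75; exact permutation p = 0.011, adjusted p = 0.75). C1qbp, the mitochondrial C1q-binding protein, had r = -0.71 to C1qa (rho = -0.52; exact permutation p = 0.035, adjusted p = 0.74). Among 17 of 25 genes of signalling through immune receptor tyrosine-based motifs, 11 were higher in males (median difference 0.03) and 9 had a positive mean correlation; none was called for sex. Apoe, a lipid carrier that TREM2 binds, had r = 0.83 to C1qc (rho = 0.72; exact permutation p = 0.0046, adjusted p = 0.20), and 0.50 within the 6 brighter arrays. Cblb, a ubiquitin ligase that restrains receptor signalling, had r = -0.83 to C1qb (rho = -0.70; exact permutation p = 0.0021, adjusted p = 0.89), and the kinase Btk, at an intensity of 39.4 to 52.1, had r = -0.78 to Trem2 (rho = -0.77; exact permutation p = 0.011, adjusted p = 0.59). In the list of CSF1, fractalkine and TGF-beta signals 9 of 13 were measured, 5 were higher in males (median difference 0.00033) and 6 had a positive mean correlation. Cx3cl1, fractalkine itself, had r = -0.79 to Trem2 (rho = -0.77; exact permutation p = 0.013, adjusted p = 0.59). Il34, a ligand of the CSF1 receptor at an intensity of 54.6 to 78.1, had r = 0.78 to Tyrobp (rho = 0.85; exact permutation p = 0.012, adjusted p = 0.61). Both of those probes lay in the range where little can be resolved. In the cathepsin list 11 of 18 were measured, 8 were higher in males (median difference 0.01), none was called, and Ctsh, cathepsin H, had r = 0.89 to C1qb (rho = 0.87; exact permutation p = 0.0015, adjusted p = 0.89).

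Markers of other cell types were set beside these values. Of 12 meningeal genes 11 were measured, and all 11 had a positive mean correlation with the 9 genes (median 0.40), and all 11 had a higher male mean (median difference 0.26). None passed the test for sex after adjustment, and Col3a1 alone had an unadjusted p under 0.05, a gene picked out after its value was seen. Their summed normalized intensity was 2334 to 4660 in males and 1816 to 3419 in females, highest in male 5 and lowest in female 2. An unadjusted positive correlation was called with C1qa, C1qb and Fcer1g for 7 of the 11 genes each with C1qc for 5, with Aif1 for 2 and with Trem2 and Ctss for 0, beside the background shares given above for each gene. Col1a2, a fibroblast collagen, read 9.78 in male 5 and 7.63 in female 2 and had r = 0.89 to Fcer1g (rho = 0.90; exact permutation p = 0.0028, adjusted p = 0.75), with 0.94 in the 6 brighter arrays. Igf2, a growth factor of the leptomeninges, also had r = 0.89 to Fcer1g (rho = 0.92; exact permutation p = 0.00099, adjusted p = 0.75). The part of meningeal tissue in the levels of the 9 genes was not tested.

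Border macrophages and blood leukocytes share many of the 9 genes. Of their list 14 of 24 were measured, 6 were higher in males (median difference -0.02), and 12 had a positive mean correlation (median 0.17); none was called for sex after or before adjustment. Their summed normalized intensity, with the offset of 50 in each probe, was 1055 to 1216 in males and 1066 to 1260 in females. The mannose receptor Mrc1, at an intensity of 43.9 to 59.1, had r = 0.90 to C1qb (rho = 0.82; exact permutation p = 0.0012, adjusted p = 0.89). The lectin Clec10a had r = 0.88 to C1qb (rho = 0.82; exact permutation p = 0.0021, adjusted p = 0.89). The T cell marker Cd3e, at an intensity of 44.7 to 55.2, had r = -0.82 to Trem2 (rho = -0.83; exact permutation p = 0.0051, adjusted p = 0.59). The monocyte receptor Ccr2, at an intensity of 50.6 to 67.1, had r = -0.67 to C1qc (rho = -0.65; exact permutation p = 0.047, adjusted p = 0.34). Its signs were mixed, with r = 0.70 to Ctss, 0.61 to Trem2 and a mean correlation of -0.0055 with the 9 genes. Of 12 oligodendrocyte genes 11 were measured, and 0 of the 11 had a positive mean correlation (median -0.31), and 1 of 11 was higher in males (median difference -0.14). Their summed normalized intensity was 5581 to 14001 in males and 11233 to 13533 in females, and male 5 was lowest. Mog, a myelin protein, had r = -0.80 to Fcer1g (rho = -0.70; exact permutation p = 0.0083, adjusted p = 0.75).

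**Figure D5:**
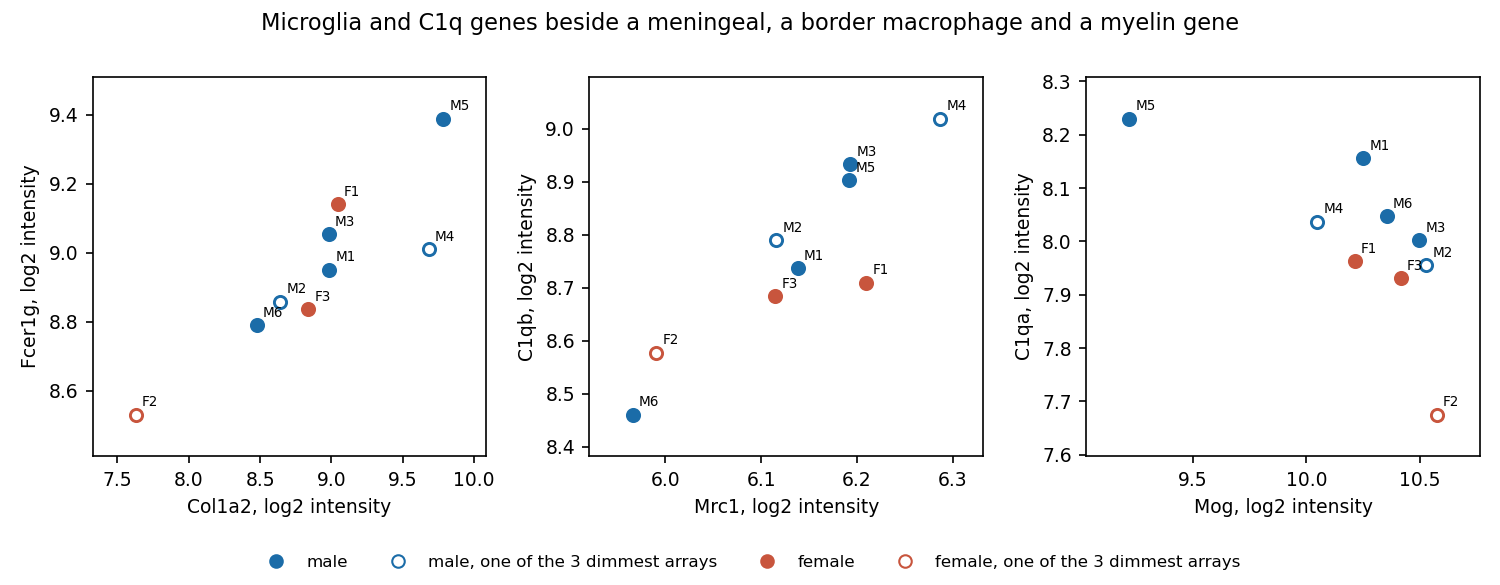
Log2 intensity of Fcer1g against Col1a2, C1qb against Mrc1 and C1qa against Mog in each animal, males in blue and females in red, open points for the 3 dimmest arrays. Fcer1g and C1qb run upward with the first 2 markers and C1qa runs downward with Mog, with male 5 and female 2 at opposite ends in the Col1a2 and Mog panels.

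By likeness to the mean standardised level of the 9 genes, over 10318 named genes and 9 animals, the 10 most alike were Nfatc4 (r = 0.94), Crabp2 (0.93), Col1a2 (0.93), Tbx15 (0.91), Cpz (0.91), Pax6 (0.91), Lix1 (0.90), Tmem176b (0.90), Ctsh (0.90) and Sh3bgr (0.89). The 3 least alike were Dnajb6 (-0.94), Atrn (-0.92) and Cited4 (-0.91). These values share the same 9 arrays and their brightness, and the correlation is given as a description with no p. Within the 6 brighter arrays they were 0.84 or above for the 10 and -0.89 or below for the 3. Of the 10, Nfatc4, Tbx15, Cpz, Pax6 and Sh3bgr read below 100 on the deposited scale in every animal.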

How the data were processed

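The authors deposited 1 linear intensity per probe for each array, and a series table of log2 values for 15912 probes that matched quantile-normalized log2 of the same arrays. The scanner software and how beads were summarised are not stated in the labels or files. The number of arrays limits the precision. Intensities were corrected with normexp (offset 50), log2-transformed and quantile-normalized in limma 3.58.1 (R 4.3.3). A probe was tested if above the 25th percentile of an array's intensities on 3 or more arrays. Symbols came from the platform annotation, updated through gene identifiers. Sex was tested with lmFit and eBayes and title number with an F test with sex as covariate, with Benjamini-Hochberg adjustment over 18531 probes. Correlations used Python 3.11.15, numpy 2.4.6 and scipy 1.17.1 with all 362880 orders of 9 animals (smallest possible p 2.8e-06). Each of the 9 genes was correlated with the 18530 other tested probes, and p was adjusted over them for that gene. Replicate numbers within each sex are names only; the labels describe each sample as tissue from 1 animal and give no litter.

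The methods were tested on simulated data. All measured members were named, and from each list up to 4 genes by the highest and up to 2 by the lowest mean correlation with the members; likeness genes were the 10 highest and 3 lowest. The members and the 16 lists were chosen with earlier results of these data known. Alternatives were background correction, normalization, the deposited series table, probe filters, array weights, an intensity trend, the title number as a block, rank correlation and animals left out.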

Additional observations from a re-analysis of the deposited data

How the results depend on the processing

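The count of genes and of probes called for sex was 0 under all 20 alternatives (limma). The count of probes called for title number was 0 except 1 without male 4 and 3 without the 3 dimmest arrays, and the genes' count stayed at 0. At an unadjusted p under 0.05 the sex count ran from 162 to 740 probes and from 1 (without female 2, without the 3 dimmest arrays or with an intensity trend) to 4 of the 9 genes (without male 6). C1qa missed that threshold without female 2, without the 3 dimmest arrays, with an intensity trend, without normalization and with 75th-percentile scaling. The title count ran from 918 to 2529 probes. The lowest sex count came with 75th-percentile scaling and the highest without the 3 dimmest arrays. With the title number as a block, no call for sex was changed. The Aif1 difference stayed positive in all 20 alternatives (0.28 to 0.38), and its gap stayed above 0 in the 14 that could give it. The C1qc difference was -0.082 without female 2, and its range with 1 animal left out was -0.082 to 0.22. The Ctss difference was 0.054 without normalization and 0.0069 with 75th-percentile scaling, with a left-out range of -0.079 to 0.065. That range was -0.016 to 0.061 for Tyrobp and -0.091 to 0.0084 for Cx3cr1.

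For C1qa with C1qb, r was 0.78 without normalization, 0.74 after removing title-number means (the replicate block) and -0.024 without the 2 farthest animals, with a left-out range of 0.20 to 0.62. For C1qa with C1qc, r was 0.39 without the 3 dimmest arrays, 0.48 by rank, 0.17 without the 2 farthest animals and 0.62 after removing brightness-group means, an alternative chosen after seeing the data. Its left-out range was 0.46 to 0.82, with the lowest value without female 2. For C1qb with C1qc, r was 0.82 without normalization, 0.89 without the 3 dimmest arrays and 0.89 after removing brightness-group means, with a left-out range of 0.16 to 0.48. For Tyrobp with Fcer1g, r was 0.75 with a floor of 64, 0.87 without normalization and 0.11 with 75th-percentile scaling, with a left-out range of 0.49 to 0.69. For Trem2 with Tyrobp, r was 0.23 with a floor of 64, 0.52 without normalization, 0.42 with 75th-percentile scaling, 0.67 without the 3 dimmest arrays and 0.52 after removing brightness-group means, with a left-out range of -0.18 to 0.19. C1qc with Tyrobp was -0.13 with 75th-percentile scaling. The median over all pairs ran from 0.047 (without the 2 farthest animals) to 0.59 (without normalization), with a left-out range of 0.085 (without male 5) to 0.35. The cause of these shifts was not tested. Each gene had 1 probe, so averaging probes changed nothing; the pair of Csf1r with Cx3cr1 was not run.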

Other observations

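In the list of activated microglia genes 13 of 21 were measured, and 7 had a higher male mean (median difference 0.02). A positive mean correlation with the 9 genes was seen for 11, and none was called for sex after or before adjustment. Both counts include Gfap, an astrocyte gene that also stands in the astrocyte list (male minus female 0.19, mean correlation 0.13). Axl, a receptor for apoptotic cells, had r = 0.87 to Ctss (rho = 0.78; exact permutation p = 0.0034, adjusted p = 0.49). Of the C1q domain family beyond C1q itself, 10 of 24 were measured, 4 were higher in males (median difference -0.0087) and 5 had a positive mean correlation; Adipoq, at an intensity of 38.2 to 53.3, had the lowest mean correlation, -0.46.

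Among other cells, 3 of 12 neuronal genes (median difference -0.12) and 5 of 11 astrocyte genes (-0.0021) had the higher mean in males, and 4 and 7 had a positive mean correlation. Slc1a3, the astrocyte glutamate transporter GLAST, had r = 0.87 to Trem2 (rho = 0.88; exact permutation p = 0.0055, adjusted p = 0.59). Endothelial and pericyte genes were higher in males for 7 of 9 (0.08), choroid plexus genes for 8 of 10 (0.14), red blood cell genes for 5 of 6 (0.23) and hippocampal genes for 3 of 7 (-0.0036), and 6, 8, 5 and 4 had a positive mean correlation. None of these lists held a gene called after adjustment. At an unadjusted p under 0.05, and named after their values were seen, Slc38a5, Col8a1 and Hba-a1 had the higher mean in males and Lct the lower.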
